A study of Mus musculus with 15 samples.

Results

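The NRF2 antioxidant genes are 10 genes of the cellular answer to oxidants and electrophiles, taken by name from 50554 genes counted in 15 RNA-seq libraries of dendritic cells grown from mouse bone marrow (BMDCs). They are Nfe2l2, Gclc, Gclm, Slc7a11, Srxn1, Txnrd1, Prdx1, Hmox1, Nqo1 and Sqstm1. All 10 were found, and all 10 passed the filter on low counts. BMDCs are antigen-presenting cells, grown here with GM-CSF for 9 days in a medium that also held the reducing agent β-mercaptoethanol. Every mouse, controls included, carried a CreERT2 transgene, was given tamoxifen and lost 1 floxed Mysm1 allele. Control cells (Δ/+) kept a wild-type allele, and the other cells (Δ/DN) kept an allele for a catalytically inactive MYSM1, a deubiquitinase of histone H2A. Between tamoxifen and marrow harvest lay more than 12 weeks, and the BMDCs were then held for 18 h unstimulated (US) or with 10 ng/mL lipopolysaccharide (LPS), the bacterial cell wall component sensed by TLR4. Unstimulated cells gave 4 libraries of each genotype, and LPS-treated cells 3 of Δ/+ and 4 of Δ/DN. The sources used here do not say what drives the CreERT2 transgene or whether each culture came from its own mouse. P-values therefore cannot be taken to measure the spread between mice. They measure the spread between libraries within groups, and the main model did not join the US and LPS library of a culture.

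The description of the series and the fields of its samples contradict each other on which letter stands for which genotype. The sample fields were followed, and each sign between Δ/DN and Δ/+ is inverted should the series description be the correct one. Libraries held 37256651 to 104041282 counted reads. The libraries fall by a 2 or 3 in their names into sets, and no source used here says what the numeral stands for. Of Δ/+, set 3 held a single library, US replicate 4, beside replicates 3 and 4 of Δ/DN with and without LPS. Mysm1, whose total RNA does not tell its alleles apart, lay at 28.1 CPM (read counts scaled to library size) in Δ/DN US replicate 3 and between 42.0 and 54.1 CPM in the other US libraries. With LPS Mysm1 lay at 41.3 to 44.6 CPM in Δ/+ and at 30.8 to 40.0 CPM in Δ/DN libraries, lowest again in Δ/DN replicate 3. The library Δ/DN US replicate 3, from Δ/DN culture 3, also stood apart for Acod1, an LPS-induced gene that makes itaconate. It had 709.6 CPM against 96.4 to 343 CPM in the other US libraries. Its scaling factor (TMM) was 1.04, against 1.30, 1.33 and 1.32 in the other Δ/DN US libraries, which raises all its CPM relative to theirs. How far its levels beside those of the other Δ/DN libraries rest on this factor was not tested. In that culture the Y-linked gene Ddx3y was at 1.94 CPM without and 3.69 CPM with LPS. Δ/DN culture 4 had 0 Ddx3y reads and was the only culture with abundant Xist, at 1144 and 1166 CPM. The remaining cultures had Ddx3y between 47.2 and 105 CPM. For part of the results that rest on these cultures, values without them are given too.

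NRF2, the product of Nfe2l2, is a transcription factor that is held in the cytoplasm and marked for degradation by KEAP1 and the CUL3 ubiquitin ligase. Oxidants and electrophiles modify KEAP1, so that NRF2 builds up, pairs with small MAF proteins and binds antioxidant response elements, which BACH1 otherwise occupies. Its control is mainly on the protein, so the RNA level of Nfe2l2 is no measure of its activity. In myeloid cells LPS induces several of its target genes, and itaconate, the product of ACOD1, is known to modify KEAP1. Several targets also answer to other factors, such as ATF4 for Slc7a11.

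The promoters of 8 of the 10 genes were at hand from RefSeq (GRCm38.p6), as 250 bases before each of 10 annotated starts, with 3 starts for Txnrd1. The letters TGACNNNGC, the core of an antioxidant response element, were searched on both strands and found in 4 of the 10 start windows, those of Nfe2l2, Gclm, Prdx1 and 1 of the 3 Txnrd1 starts, and in 10.2% of all 32851 promoter windows of the same length. The looser letters TGANNNNGC were found in 7 of the 10 windows, with a further Txnrd1 start, Srxn1 and Slc7a11 added, and in 35.2% of all windows. Sqstm1 and Nqo1 held neither in this window. The AP-1 letters TGACTCA or TGAGTCA were found in 2 of the 10 windows, Srxn1 and Prdx1, and in 4.46% of all windows. In Prdx1 the core match, 133 to 125 bases before the start, overlaps an AP-1 match, and in Srxn1 the looser match 45 to 37 bases before the start does. The windows of the 5 target genes with a match are shown because these genes fill the glutathione and thioredoxin arms described next. Capitals mark the looser matches, which take in the core ones, and each window is written 5′ to 3′ on the gene's strand.
Gclm (chr3:122245307-122245556, plus strand): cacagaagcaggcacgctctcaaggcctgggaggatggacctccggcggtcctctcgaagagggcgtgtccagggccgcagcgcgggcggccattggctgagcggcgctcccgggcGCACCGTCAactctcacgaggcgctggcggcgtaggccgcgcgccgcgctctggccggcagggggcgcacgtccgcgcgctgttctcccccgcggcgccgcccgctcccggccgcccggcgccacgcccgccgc
Slc7a11 (chr3:50443614-50443863, minus strand): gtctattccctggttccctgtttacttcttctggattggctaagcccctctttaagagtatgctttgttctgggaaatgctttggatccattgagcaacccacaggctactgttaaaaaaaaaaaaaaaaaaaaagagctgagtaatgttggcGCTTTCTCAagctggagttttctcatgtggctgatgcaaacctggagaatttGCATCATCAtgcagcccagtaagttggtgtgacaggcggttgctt
Srxn1 (chr2:152105274-152105523, plus strand): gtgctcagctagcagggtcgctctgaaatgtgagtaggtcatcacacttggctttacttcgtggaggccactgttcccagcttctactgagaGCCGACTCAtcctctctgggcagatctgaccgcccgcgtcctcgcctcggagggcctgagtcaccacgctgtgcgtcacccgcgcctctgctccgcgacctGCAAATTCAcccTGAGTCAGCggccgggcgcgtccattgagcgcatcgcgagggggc
Txnrd1, second start (chr10:82858956-82859205, plus strand): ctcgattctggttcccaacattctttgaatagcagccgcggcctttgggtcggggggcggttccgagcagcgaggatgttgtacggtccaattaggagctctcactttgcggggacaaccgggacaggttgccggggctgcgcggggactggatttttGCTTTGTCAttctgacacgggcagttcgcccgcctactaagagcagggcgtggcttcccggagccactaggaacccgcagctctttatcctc
Prdx1 (chr4:116685349-116685598, plus strand): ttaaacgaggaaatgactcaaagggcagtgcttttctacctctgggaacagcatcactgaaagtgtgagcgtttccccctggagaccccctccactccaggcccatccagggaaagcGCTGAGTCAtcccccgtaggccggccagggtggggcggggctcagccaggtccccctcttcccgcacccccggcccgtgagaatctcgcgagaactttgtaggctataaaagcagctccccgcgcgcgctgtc
A match is a description of letters and does not show binding.

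Per kilobase of deposited gene length, Prdx1 had the highest mean level of the 10 in every group, from 598 ± 207 (SD) CPM per kilobase in Δ/DN US to 1675 ± 178 in Δ/DN LPS libraries. Hmox1 came next in every group, between 102 ± 37.5 and 228 ± 30.6 CPM per kilobase. Gclc and Nqo1 were at the bottom, Gclc between 3.68 and 6.42 and Nqo1 between 1.88 and 4.37 CPM per kilobase. In Δ/+ US libraries the ranges of Nfe2l2 (77.6), Gclm (70.4) and Sqstm1 (55.6 CPM per kilobase) overlapped between neighbours in this order, as did those of Txnrd1 (33.7) and Srxn1 (27.1). Slc7a11 was below both there at 18.0 ± 1.83, and in Δ/+ LPS libraries it reached 90.6 ± 10.7 CPM per kilobase, where its range overlapped those of Nfe2l2 and Txnrd1. The sources used here do not say how the deposited lengths were computed. The order per kilobase rests on them, with 35604 bases for Slc7a11, 13866 for Txnrd1 and 1417 for Prdx1. In mean CPM of Δ/+ US libraries, Slc7a11 (641) lay above Txnrd1 (467) and Srxn1 (168). In Δ/+ LPS libraries it lay above Prdx1 (3226 against 2287 CPM). Sqstm1 overlaps Mrnip on the opposite strand, and Txnrd1 overlaps Eid3 on the same strand and Gm38560 and Gm47073 on the opposite strand. On the same strand, Nfe2l2 overlaps the snRNA Gm24996, Gclm the pseudogene Gm6061, and Slc7a11 the pseudogene Gm37692 and Gm37498. Gclm and Slc7a11 also overlap genes on the opposite strand. The counts of these members may hold reads of the genes they overlap.

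**Figure D1:**
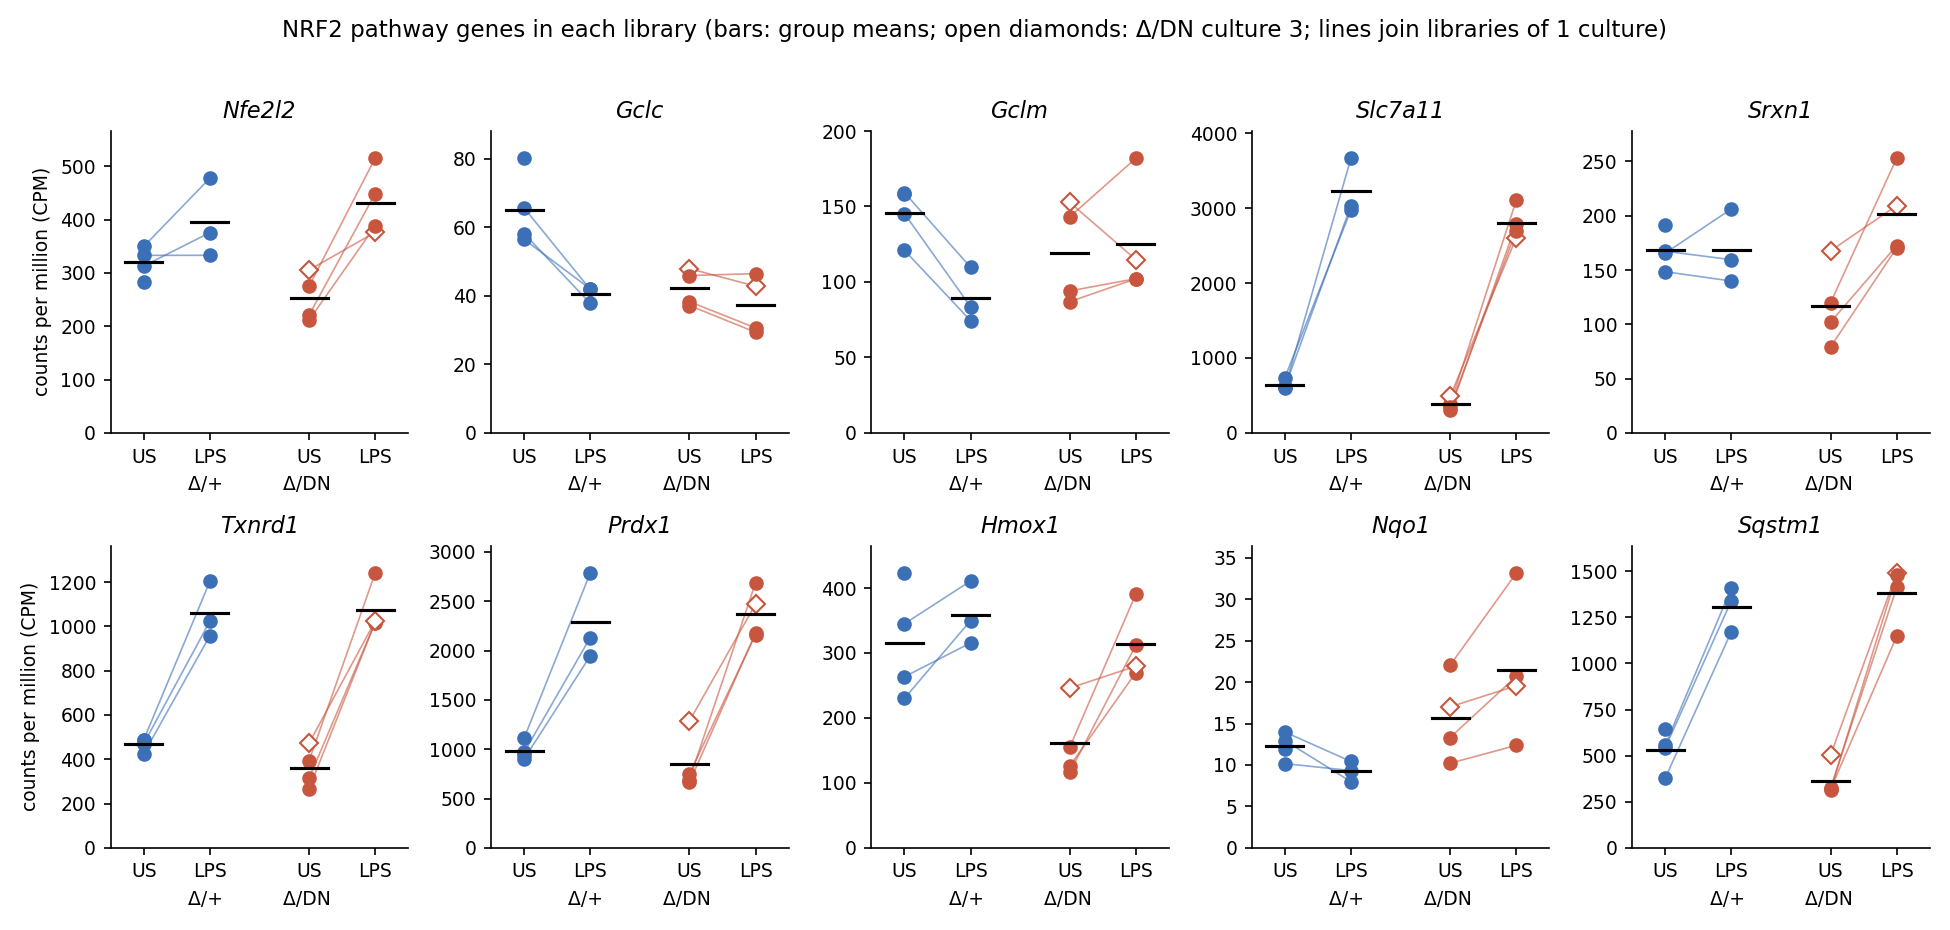
Level of each gene (y axis, CPM, from 0) in each library, by genotype and treatment (x axis), with blue for Δ/+ and red for Δ/DN, black bars for group means and lines joining the US and LPS library of a culture. The open diamond of Δ/DN culture 3 lies highest of the Δ/DN US libraries in 9 of the 10 panels, and Slc7a11, Sqstm1, Txnrd1 and Prdx1 rise from US to LPS in every culture.

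Without LPS, 6 of the 10 genes fell in Δ/DN as labelled, 0 rose, and 4 did not pass. Glutathione synthesis (Gclc, Slc7a11), the thioredoxin arm (Srxn1, Txnrd1), haem breakdown (Hmox1) and the autophagy receptor p62 (Sqstm1) each had a gene that fell, with the largest drop in Hmox1, which was 53.8% lower. Of all 20865 genes tested 5.45% fell and 5.01% rose. The median log2 difference of the 10 genes was -0.55, and that of all genes 0.01. In bulk libraries fewer cells of a type and less RNA per cell cannot be told apart.

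The regulator itself, Nfe2l2, lay at 313, 333, 349.5 and 283 CPM in Δ/+ US and at 275, 221, 306 and 211 CPM in Δ/DN US replicates 1 to 4. The groups overlapped through Δ/DN replicate 3, and the log2 difference of -0.29 ± 0.15 (SE) did not pass (adjusted p = 0.228). Without Δ/DN culture 3 it was -0.43 ± 0.12 and passed (adjusted p = 0.0267). Of 15 refits that left out 1 library, Nfe2l2 passed in 1, the one without Δ/DN US replicate 3.

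In the glutathione arm, Gclc encodes the catalytic and Gclm the modifier subunit of glutamate-cysteine ligase, which makes the first bond of glutathione, and Slc7a11 the cystine importer xCT that supplies its cysteine. Gclc lay at 58.2, 65.7, 56.5 and 80.2 CPM in Δ/+ and at 37.2, 38.3, 48.0 and 45.9 CPM in Δ/DN libraries. All Δ/DN libraries were below all Δ/+ libraries, and the log2 difference was -0.73 ± 0.08 (adjusted p = 0.000783). Slc7a11 lay at 611, 739, 605 and 608 CPM in Δ/+ and at 381, 308, 489.5 and 347 CPM in Δ/DN. These groups did not overlap either, with a log2 difference of -0.75 ± 0.15 (adjusted p = 0.0101). For 2 of the 10 genes, Gclc and Slc7a11, every Δ/DN library was lower, as it was for 6.2% of all genes. Gclm lay at 121, 145, 159 and 158 CPM in Δ/+ and at 94.1, 87.0, 153 and 143 CPM in Δ/DN. The first pair of Δ/DN libraries was below every Δ/+ library and the other pair, of set 3, was within the Δ/+ range, and the difference of -0.46 ± 0.16 did not pass (adjusted p = 0.0835).

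In the thioredoxin arm, Txnrd1 encodes the cytosolic thioredoxin reductase, Prdx1 a peroxiredoxin that reduces hydrogen peroxide and Srxn1 the sulfiredoxin that restores over-oxidised peroxiredoxins. Srxn1 lay at 148, 167, 166 and 191 CPM in Δ/+ and at 102, 79.2, 168 and 120.0 CPM in Δ/DN US libraries. Replicate 3 sat at the Δ/+ level and the other 3 below it, with a log2 difference of -0.67 ± 0.15 (adjusted p = 0.0155). Txnrd1 was at 425, 469.8, 488 and 486 CPM in Δ/+ and at 313, 266, 471 and 393 CPM in Δ/DN. It showed the same arrangement, with a difference of -0.47 ± 0.13 (adjusted p = 0.0384). Prdx1 was at 900.3, 968, 1111 and 940.1 CPM in Δ/+ and at 692, 664, 1285 and 749 CPM in Δ/DN. Here replicate 3 was above every Δ/+ library while the other 3 were below them all, and the difference of -0.27 ± 0.20 did not pass (adjusted p = 0.421). Without Δ/DN culture 3 Prdx1 was at -0.50 ± 0.14 (adjusted p = 0.0254). It passed in 1 of 15 refits that left out 1 library, likewise the one without Δ/DN US replicate 3.

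Among the remaining effectors, Hmox1 encodes haem oxygenase 1, which opens haem to biliverdin, iron and carbon monoxide, and Nqo1 a quinone reductase. Hmox1 lay at 263, 345, 230.2 and 423 CPM in Δ/+ and at 126, 116, 246 and 155 CPM in Δ/DN US libraries. Replicate 3 lay just above the lowest Δ/+ library and the other 3 were below all of them, and Hmox1 fell by 1.11 ± 0.18 on the log2 scale (adjusted p = 0.00498). Nqo1 was low, at 12.9, 10.2, 14.0 and 11.9 CPM in Δ/+ and 10.2, 13.3, 17.0 and 22.0 CPM in Δ/DN. Its groups overlapped, and it was the 1 gene of the 10 with a positive difference, 0.17 ± 0.23 (adjusted p = 0.699). Sqstm1 encodes p62, which carries ubiquitinated cargo into autophagy and can draw KEAP1 away from NRF2. It was at 543, 557, 379 and 646 CPM in Δ/+ and at 318, 323, 503 and 313 CPM in Δ/DN. Again replicate 3 was within the Δ/+ range and the other 3 were below it, and the difference was -0.62 ± 0.16 (adjusted p = 0.025).

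Hmox1 and Gclc kept their call in each of 15 refits that left out 1 library. Slc7a11 lost it when Δ/+ US replicate 4 was left out, or replicate 2 of the Δ/DN US group, and Srxn1 also without Δ/+ US replicate 2. Sqstm1 kept its call in 9 refits and lost it without replicate 1, 2 or 4 of either US group. Txnrd1 kept its call in 7 and lost it without the same libraries, Δ/+ US replicate 3 or Δ/+ LPS replicate 2. The count of genes that fell was 2 without Δ/+ US replicate 4 (of set 3) or without replicate 2 of the Δ/DN US group, 3 without Δ/+ US replicate 2, and 4 when Δ/+ US replicate 1, or replicate 1 or 4 of the Δ/DN US group, was left out. It was 8 without Δ/DN US replicate 3 and 9 without both libraries of culture 3, when Nfe2l2, Gclm and Prdx1 passed as well. It was 3 (Gclc, Hmox1 and Slc7a11) without the library set term and 7 within set 2.

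**Figure D2:**
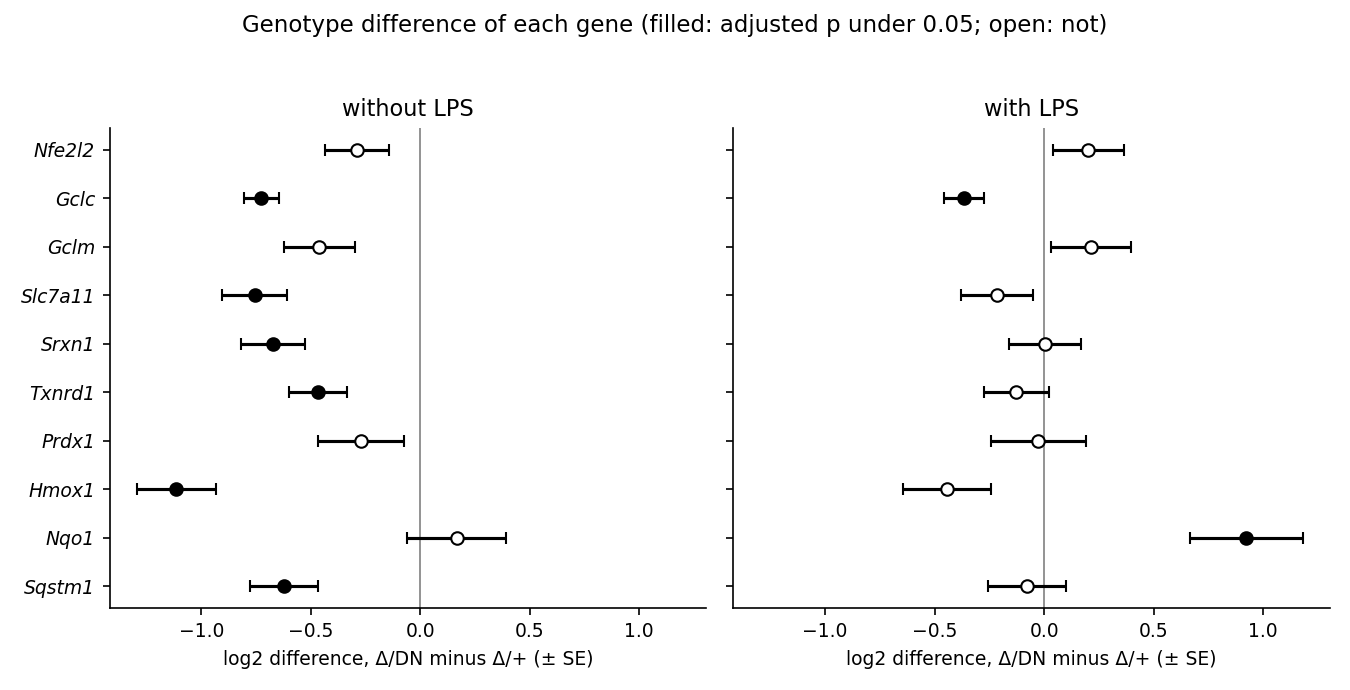
Log2 difference of Δ/DN from Δ/+ (x axis, ± SE) for each gene (y axis), without LPS on the left and with LPS on the right, filled where the adjusted p was under 0.05. On the left 9 of 10 points lie below 0 and 6 are filled, and on the right only Gclc (-0.36) and Nqo1 (0.92) are filled.

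With LPS, the genotypes differed in 2 of the 10 genes: Nqo1 rose in Δ/DN as labelled and Gclc fell. Of all genes 5.37% rose and 3.23% fell. The median log2 difference of the 10 was -0.05 and that of all genes 0.01. Nqo1 lay at 7.98, 9.32 and 10.4 CPM in Δ/+ LPS and at 12.4, 20.7, 19.6 and 33.1 CPM in Δ/DN LPS libraries. Every Δ/DN library was higher, as was the case for 12.6% of all genes, and Nqo1 rose by 0.92 ± 0.26 on the log2 scale (adjusted p = 0.043). Gclc lay at 37.8, 41.9 and 42.1 CPM in Δ/+ and at 29.4, 30.7, 42.8 and 46.5 CPM in Δ/DN. The 2 Δ/DN libraries of set 2 were below the Δ/+ libraries, all of set 2, and those of set 3 above them, and the difference with the set term was -0.36 ± 0.09 (adjusted p = 0.0288). Without the set term Gclc was at -0.12 ± 0.16 (adjusted p = 0.714).

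The other 8 genes did not pass with LPS. Hmox1, at 316, 411 and 350.0 CPM in Δ/+ and 269.9, 312, 279.6 and 391 CPM in Δ/DN, had the most negative value among them, -0.44 ± 0.20 (adjusted p = 0.179). Srxn1 (0.01 ± 0.16), Prdx1 (-0.03 ± 0.22) and Sqstm1 (-0.08 ± 0.18) had the values nearest to 0. Slc7a11 was at -0.21 ± 0.16 and Txnrd1 at -0.13 ± 0.15, and Gclm (0.21 ± 0.18) and Nfe2l2 (0.20 ± 0.16) were positive. Nqo1 kept its call in 4 of 15 refits that left out 1 library, with adjusted p from 0.0213 to 0.173. Leaving out any Δ/+ library, Δ/DN US replicate 2 or 3, or Δ/DN LPS replicate 2 or 4 ended it. The call of Gclc ended without any 1 of the 3 Δ/+ LPS libraries or without Δ/DN LPS replicate 1 or 2.

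LPS itself raised Slc7a11, Sqstm1, Prdx1 and Txnrd1 in both genotypes. In Δ/+ cells these 4 rose, Gclm and Gclc fell, and Nfe2l2, Hmox1, Srxn1 and Nqo1 did not pass. In Δ/DN cells Hmox1, Srxn1 and Nfe2l2 rose as well, Gclc fell, and Gclm and Nqo1 did not pass. The response to LPS took in much of the transcriptome: 22.4% of all genes rose and 25.3% fell in Δ/+, and 23.1% rose and 25.1% fell in Δ/DN. The median log2 change of the 10 genes was 0.30 in Δ/+ and 0.90 in Δ/DN, and that of all genes -0.08 and -0.09. Scaling factors (TMM) were 1.04 to 1.33 in US and 0.734 to 0.94 in LPS libraries, which raises CPM with LPS relative to US. How much of the smaller rises, such as those of Nfe2l2 and Srxn1 in Δ/DN, rests on this scaling was not tested.

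Slc7a11 had the largest change. It reached 3035, 2977 and 3667 CPM in Δ/+ LPS and 3108, 2789, 2606 and 2701 CPM in Δ/DN LPS libraries, 5.05-fold and 7.35-fold above the US level (log2 2.34 ± 0.16, adjusted p = 4.21e-08, and 2.88 ± 0.15, adjusted p = 7.24e-09). Sqstm1 reached 1340.4, 1409 and 1173 CPM in Δ/+ and 1148, 1413, 1490.5 and 1482 CPM in Δ/DN, for log2 changes of 1.39 ± 0.17 and 1.93 ± 0.16 (adjusted p = 8.18e-06 and 2.34e-07). In the thioredoxin arm, Txnrd1 reached 957, 1023 and 1203 CPM in Δ/+ and 1017, 1018, 1024 and 1241 CPM in Δ/DN, for log2 changes of 1.25 ± 0.14 and 1.60 ± 0.13 (adjusted p = 3.5e-06 and 2.33e-07). In each of these 3 genes every LPS library was above every US library of its genotype. Prdx1 reached 1945, 2130.2 and 2785 CPM in Δ/+ and 2686, 2175, 2469.8 and 2161 CPM in Δ/DN, for log2 changes of 1.26 ± 0.21 and 1.51 ± 0.19 (adjusted p = 0.000124 and 1.46e-05), again with no overlap.

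The enzyme of glutathione synthesis went the other way in Δ/+ cells while its cystine supplier rose. Gclm went to 74.4, 83.6 and 109.7 CPM in Δ/+ LPS libraries, below every Δ/+ US library, and fell by 0.59 ± 0.17 on the log2 scale (adjusted p = 0.0107). That call was lost without Δ/+ LPS replicate 1 (adjusted p = 0.0624). Gclc fell by 0.56 ± 0.09 in Δ/+ (adjusted p = 7.45e-05), also with no overlap. In Δ/DN cells Gclm was at 102, 102, 115 and 182 CPM with LPS, a change of 0.09 ± 0.16 (adjusted p = 0.687). Gclc fell there by 0.20 ± 0.08 (adjusted p = 0.0454), with overlapping libraries, kept the call in 3 of 15 refits without 1 library, and had an adjusted p = 0.0507 with culture as a block. For 4 of the 10 genes in Δ/+ every LPS library was higher and for 2 every one was lower, against 24.3% and 27.8% of all genes, and in Δ/DN for 7 every one was higher, against 20.1%.

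Hmox1, Srxn1 and Nfe2l2 passed in Δ/DN cells. Hmox1 rose there by 1.01 ± 0.18 on the log2 scale (adjusted p = 0.000255), and its value in Δ/+ was 0.34 ± 0.19 (adjusted p = 0.17). Srxn1 reached 139.9, 159.6 and 206 CPM in Δ/+ LPS and 173, 170.5, 209 and 253 CPM in Δ/DN LPS libraries, for log2 changes of 0.12 ± 0.15 and 0.80 ± 0.14 (adjusted p = 0.559 and 0.000287). Nfe2l2 reached 375, 333 and 478 CPM in Δ/+ and 515, 449, 376 and 388 CPM in Δ/DN, for log2 changes of 0.27 ± 0.15 and 0.76 ± 0.14 (adjusted p = 0.171 and 0.000428). For these 3 genes the LPS libraries of Δ/+ overlapped the Δ/+ US libraries, and those of Δ/DN lay above the Δ/DN US libraries. The values of Nqo1 were -0.30 ± 0.24 in Δ/+ and 0.46 ± 0.22 in Δ/DN (adjusted p = 0.339 and 0.0956). With culture as a block both passed, at -0.41 ± 0.13 (adjusted p = 0.017) and 0.43 ± 0.11 (adjusted p = 0.00507).

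**Figure D3:**
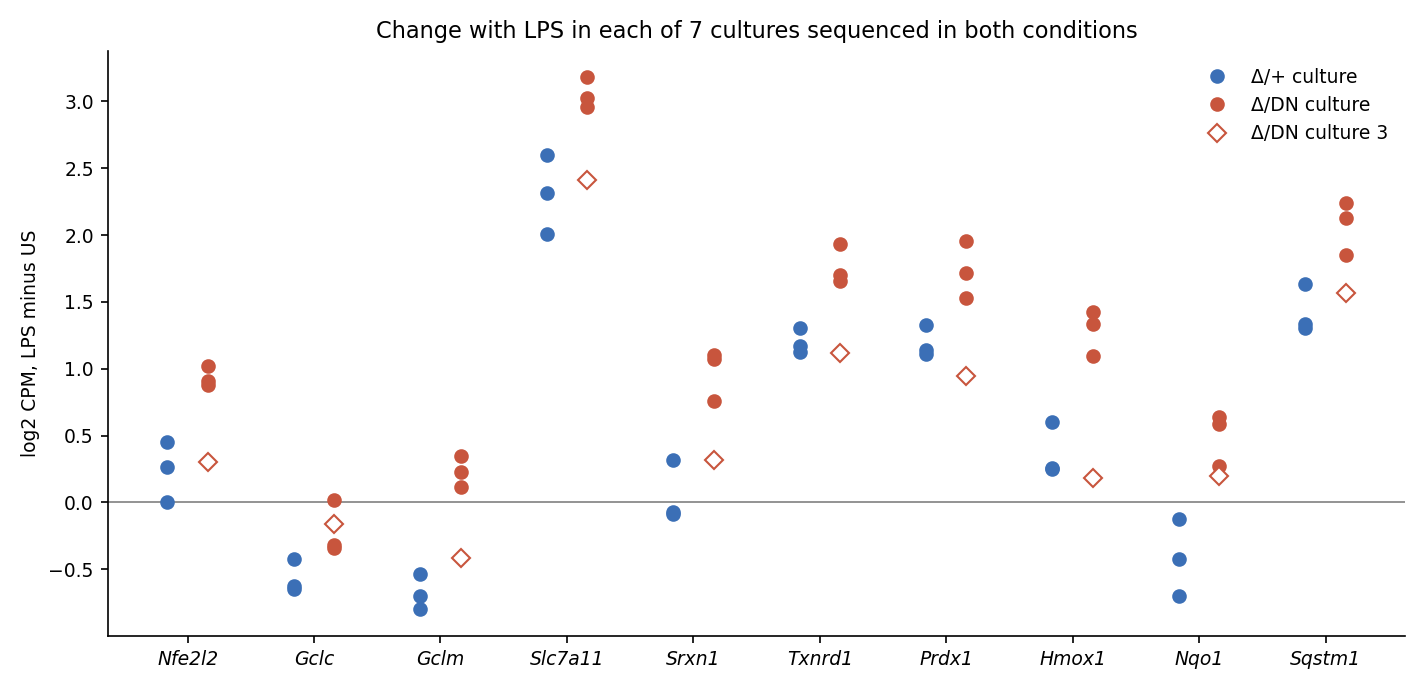
Log2 change in CPM from the US to the LPS library (y axis) for each gene (x axis) in the 3 Δ/+ and 4 Δ/DN cultures that have both, 1 point per culture. Slc7a11 changed most, between 2.01 and 3.18, and the open diamond of Δ/DN culture 3 is the lowest Δ/DN point for 9 of the 10 genes.

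The difference between the LPS effects of the genotypes did not pass for any of the 10 genes, with adjusted p from 0.334 to 0.857. It passed for 1 of 20865 genes (0.00479%). All 10 values were positive, meaning a more positive change in Δ/DN, from 0.24 ± 0.28 (Prdx1) to 0.76 ± 0.32 (Nqo1), with a median of 0.54 against 0.02 over all genes. At an unadjusted p under 0.05 there were 8 of the 10 genes, all but Prdx1 and Txnrd1. Of all 20865 genes, 5.71% had both a positive value and such a p. DESeq2 also called 0 of the 10. The US libraries that gave the genotype difference without LPS enter this difference too, so the values of the comparisons are not separate observations. Nqo1 went down in each of the 3 Δ/+ cultures, by values from -0.70 to -0.13, and up in each of the 4 Δ/DN cultures, from 0.20 to 0.64. With culture as a block its difference passed, at 0.84 ± 0.17 (adjusted p = 0.0441), while Gclm (0.75 ± 0.17, adjusted p = 0.0584) and Srxn1 (0.76 ± 0.19, adjusted p = 0.0816) did not. Without Δ/DN culture 3 the median of the 10 was 0.74 and none passed, Hmox1 being at 0.97 ± 0.20 (adjusted p = 0.0631).

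Genes that control NRF2 were counted next, from a list of 13. Beside these counts, 5.45% of all genes fell and 5.01% rose without LPS, and 3.23% fell and 5.37% rose with LPS. Without LPS 3 fell and 0 rose in Δ/DN, with a median of -0.24. They were the acetyltransferase gene Crebbp (-0.30 ± 0.08, adjusted p = 0.0329), the small MAF gene Mafg (-0.38 ± 0.11, adjusted p = 0.0443) and Bach1, which encodes the repressor at antioxidant response elements. Bach1 lay at 127, 129, 129 and 161 CPM in Δ/+ and 108, 101, 120.0 and 108 CPM in Δ/DN US libraries, with no overlap and a difference of -0.37 ± 0.11 (adjusted p = 0.0457). Keap1 did not pass (0.18 ± 0.17, adjusted p = 0.549). With LPS 2 of the 13 fell in Δ/DN, Cul3 (-0.32 ± 0.09, adjusted p = 0.0347) and the small MAF gene Mafk (-0.70 ± 0.19, adjusted p = 0.0371). These calls of regulators lay close to the cutoff of 0.05, and their refits with 1 library left out are not given here. Over all genes, such refits left as few as 174 calls without LPS and 90 with LPS. LPS raised Keap1 by 1.17 ± 0.17 in Δ/+ and 1.03 ± 0.16 in Δ/DN (adjusted p = 5.75e-05 and 9.79e-05), and lowered Bach1 to 58.2 to 89.8 CPM in Δ/+ and 57.7 to 71.6 CPM in Δ/DN (-0.86 ± 0.12 and -0.80 ± 0.11). Acod1 rose with LPS to between 4367 and 5772 CPM, by 4.27 ± 0.58 in Δ/+ and 4.16 ± 0.57 in Δ/DN.

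A longer list of 31 other genes described as NRF2 targets, of which 29 were tested, was compared between genotypes as well. Log2 differences ran from -0.96 to 0.74 without LPS and from -0.83 to 1.32 with LPS. Of all genes 5.45% fell and 5.01% rose without LPS, and 3.23% fell and 5.37% rose with LPS. Without LPS 3 fell and 0 rose, with a median of -0.08: Mgst1, a microsomal glutathione transferase (-0.96 ± 0.17, adjusted p = 0.00686), Pgd of the pentose phosphate pathway (-0.46 ± 0.12, adjusted p = 0.0319) and Ptgr1 (-0.49 ± 0.14, adjusted p = 0.0388). With LPS 2 rose, G6pdx (0.62 ± 0.15) and the catalase gene Cat (0.46 ± 0.12), and Mgst1 fell (-0.83 ± 0.19). Of 20 tested genes of glutathione synthesis and use 2 fell without LPS, Mgst1 and Chac1, and 0 rose. With LPS 3 of the 20 fell, Mgst2 (-0.86), Mgst1 and Glrx (-0.57), and 1 rose, Gpx1 (0.44). Of 16 genes of the thioredoxin and peroxiredoxin system 3 rose and 3 fell without LPS. Msrb2, a methionine sulfoxide reductase (1.36 ± 0.31), and the sestrin genes Sesn3 (0.80 ± 0.17) and Sesn2 (0.57 ± 0.15) rose, while Txnip, the thioredoxin-binding protein (-0.80 ± 0.18), Txnrd3 (-1.38 ± 0.23) and Prdx6 (-0.59 ± 0.16) fell. With LPS 4 of the 16 rose, Sesn2, Msrb1, Prdx3 and Txn2, and Txnip fell (-0.73 ± 0.20). None of the 4 superoxide dismutase and catalase genes or the 10 genes of haem breakdown and iron storage passed without LPS, and 1 and 2 of them had an unadjusted p under 0.05, as 26.2% of all genes did. Of 12 autophagy partners of p62, Gabarapl1 (-0.65 ± 0.13) and Map1lc3b (-0.48 ± 0.10), both ATG8 proteins, fell without LPS and 0 rose. With LPS 0 of the 12 fell, and Tfeb (1.14) and Atg7 (0.49) rose.

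ATF4 is a stress factor that also acts on Slc7a11. Of 12 genes, Atf4 and its targets, 5 fell and 1 (Sesn2) rose without LPS in Δ/DN, with a median of -0.50. Of all genes 5.45% fell and 5.01% rose there. Atf4 itself was at 155 ± 16.4 (SD) CPM in Δ/+ US and 106 ± 17.2 (SD) CPM in Δ/DN US libraries (-0.60 ± 0.10, adjusted p = 0.00497). Asns, the asparagine synthetase gene (-0.92 ± 0.14, adjusted p = 0.00441), Chac1, which degrades glutathione (-1.47 ± 0.31, adjusted p = 0.0134), and Atf5 (-1.14 ± 0.25, adjusted p = 0.017) fell too, as did Trib3 (-0.93). With LPS 1 of the 12, Atf4 (-0.42 ± 0.11), fell and Sesn2 (0.79 ± 0.17) rose.

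**Figure D4:**
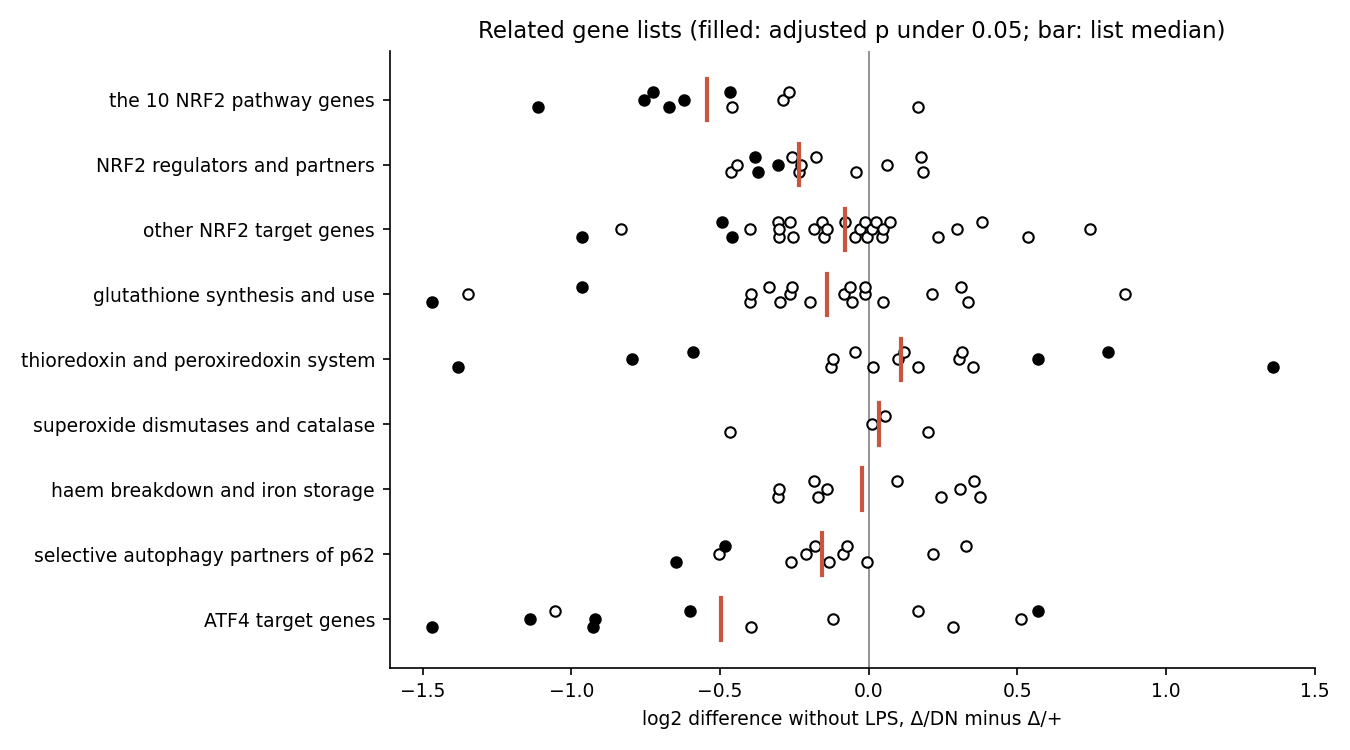
Log2 difference of Δ/DN from Δ/+ without LPS (x axis) for each tested gene of the lists named on the y axis, filled where the adjusted p was under 0.05, with a red bar at each list's median. The medians of the 10 NRF2 genes (-0.55) and of the ATF4 targets (-0.50) lie furthest from 0, and that of the 29 other NRF2 targets is at -0.08.

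The members were also compared with each other and with other genes across the 15 libraries. By the root mean square difference of centred log2 CPM, Txnrd1 and Prdx1 were the closest pair of the 10, at 0.17, and Gclc and Slc7a11 the farthest, at 1.54. Of 9228 protein-coding genes with a mean of at least 5 CPM, the nearest to both Txnrd1 and Prdx1 was Pstpip2 (0.11 and 0.12), to Slc7a11 Rab11fip1 (0.15), to Nfe2l2 Arhgap31 (0.14) and to Srxn1 Tfec (0.19). Nqo1 had the least close neighbour, Kit, at 0.31. These distances describe 15 libraries that share 2 treatments and 2 genotypes. They are not scaled to each gene's spread, so they take in the size of a gene's changes as well as their pattern.

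Markers of the labelled and of other cell types were read in the same libraries. All 8 dendritic cell markers had reads in every group, with a summed level from 5366 to 13552 CPM. Between genotypes 0 of 8 passed with or without LPS, which does not show equal levels. With LPS Zbtb46 (0.50 ± 0.15, adjusted p = 0.0589) and Batf3 (0.69 ± 0.24, adjusted p = 0.0822) came nearest, and only Irf4 (-0.03) was negative. The summed level of 8 macrophage markers was 1898 to 2098 CPM in Δ/+ US and 2408 to 2574 CPM in Δ/DN US libraries, where C1qa, C1qb and Gpnmb rose, Cd68 fell and 4 did not pass. Most of the difference in this sum was Gpnmb, whose mean CPM was 379 for Δ/+ against 815 for Δ/DN, while Csf1r, the M-CSF receptor gene, was at 764 and 717 CPM. With LPS the sum was 1841 to 1879 CPM in Δ/+ and 2221 to 2657 CPM in Δ/DN, and Gpnmb was at 315 and 919.8 CPM. The 9 neutrophil markers summed to 932 and 1085 CPM in Δ/DN culture 4 and to 45.2 to 152 CPM in the other 13 libraries. Mast cell and basophil markers summed to 22.7 to 26.7 CPM in Δ/+ US and 24.9 to 57.0 CPM in Δ/DN US, and 1 of 7, Cd200r3, rose without LPS. With LPS they summed to 20.1 to 27.1 CPM in Δ/+ and 34.3 to 65.6 CPM in Δ/DN, with no overlap, and Cd200r3 and Gata2 rose. Among markers at the low levels given next, 2 erythroid and 2 stromal ones rose without LPS and 0 with LPS, by edgeR's test. Erythroid markers summed to at most 2.76 CPM, B cell markers to 2.27, T and NK cell markers to 0.586 and stromal markers to 13.2 CPM in any library, and Klf1 was at 0 in Δ/+ US and Alas2 in Δ/DN LPS libraries. The part of the cells these markers stand for in the differences of the NRF2 genes was not tested. Without Δ/DN cultures 3 and 4, 7 of the 10 genes fell without LPS.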

How the data were processed

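For each of 15 libraries the authors deposited a table giving every gene's raw count and its length in bases. Per the labels' protocols, libraries were built from RNA depleted of ribosomal RNA with a KAPA HyperPrep RiboErase kit. The submitters' processing notes name Trimmomatic 0.33, HISAT2 2.2.1, featureCounts, edgeR and bedtools and the builds mm39 and GRCm39. Whether counting used strand is not given in the sources used here. Gene symbols are those of the tables. Promoter sequences are from RefSeq on GRCm38.p6, and overlapping genes are named from GENCODE annotation of GRCm38.

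Genes were kept by filterByExpr (minimum count 10), scaled by TMM and tested by quasi-likelihood in edgeR 4.0.16 under R 4.3.3 (robust option), with Benjamini-Hochberg adjusted p-values over the 20865 genes kept. The model held 4 groups and library set, and calls have an adjusted p under 0.05. CPM are TMM-scaled, with factors from 1.04 to 1.33 in US and 0.734 to 0.94 in LPS libraries. Depth was 37256651 to 104041282 reads per library, counting error being small for these genes beside the spread between libraries. No replicate pair agreed within sampling noise (lowest chi-square per degree of freedom 24.2). The test was tried on simulated counts first.

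Library names join the US and LPS library of a culture. Deviations from group means of such pairs correlated at 0.0643 to 0.428, and those of same-numbered cultures of different genotypes at -0.0885 to 0.146. Culture was therefore used as a block for the LPS comparisons as an alternative. Other alternatives were DESeq2 1.42.0, RLE factors, no filter, no set term, set 2 alone, Δ/DN cultures 3 or 3 and 4 left out, and each library left out.

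The 10 genes and all lists were chosen with earlier results of these data known. Named from each list were at most the 4 called genes with the smallest p, per comparison, and Keap1, Bach1, Acod1 and Mysm1 throughout. Sesn2, Prdx6, Txn2, Trib3 and single markers were named after their values were seen. For each of the 10 genes the 2 nearest genes by root mean square difference were found, of which some are named, and some results are not reported here.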

Additional observations from a re-analysis of the deposited data

Results flagged for a closer look

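Within groups of 4 libraries, 1 library stood far from the other 3 in 3 of 30 groups tested with Dixon's ratio (the gap to the nearest library over the whole range, taken on log2 CPM), where chance gives about 1 in 20. Txnrd1 in Δ/DN LPS replicate 4 was at 1241 CPM against 1017 to 1024 CPM (ratio 0.968). Slc7a11 in Δ/+ US replicate 2 was at 739 CPM against 605 to 611 CPM (0.953). Sqstm1 in Δ/DN US replicate 3 was at 503 CPM against 313 to 323 CPM (0.934). On CPM itself these ratios were 0.971, 0.957 and 0.947, and Prdx1 in Δ/DN US replicate 3 (0.863) and Gclm in Δ/DN LPS replicate 4 (0.842) also passed the critical value. The change of Nqo1 with LPS was negative in all 3 Δ/+ cultures and positive in all 4 Δ/DN cultures. The difference of the LPS effects was 0.76 on the log2 scale and did not pass in edgeR's test (adjusted p = 0.502), and with culture as a block it was 0.84 (adjusted p = 0.0441).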

How the results depend on the processing

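The count of the 10 genes called without LPS (6) was 6 or 7 with DESeq2, RLE factors, no filter and set 2 alone, 3 without the set term, 4 with the replicate number as a replicate block, and 2 to 8 with 1 library left out. With LPS (2) it was 0 without the filter, 1 without the set term, 1 with the replicate block and 0 to 2 with 1 library left out. For LPS in Δ/+ (6) the replicate block (culture) gave 7 and leaving out 1 library 5 to 6. For LPS in Δ/DN (8) they gave 8 and 7 to 8, and for the difference of LPS effects (0) they gave 1 (Nqo1) and 0. The replicate block changed, besides, the calls of Sqstm1 and Txnrd1 without LPS (adjusted p = 0.0937 and 0.0723), of Gclc with LPS (0.269) and in Δ/DN, and of Nqo1 in both LPS comparisons. Genotype replicate numbers are shared names only.

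Directions turned only for values near 0 that were not called. Nqo1 without LPS was -0.088 in set 2 alone and -0.086 without cultures 3 and 4, which compare nearly the same libraries, and -0.070 to 0.29 with 1 library left out. With LPS and no set term Txnrd1 was 0.019, Prdx1 0.054 and Sqstm1 0.081. With the replicate block Prdx1 was 0.11 and Sqstm1 0.051, and Prdx1 was 0.089 in set 2 alone, 0.040 without culture 3 and 0.076 without cultures 3 and 4. With 1 library left out Srxn1 with LPS ranged from -0.11 to 0.17, Prdx1 from -0.17 to 0.14, Srxn1 for LPS in Δ/+ from -0.047 to 0.24 and Gclm for LPS in Δ/DN from -0.063 to 0.20. The median of the 10 genes with LPS was 0.067 without the set term, 0.081 with the replicate block, 0.00445 without culture 3 and -0.12 to 0.055 with 1 library left out. The cause was not tested.

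Of all genes 2184 were called without LPS, and 3433 with DESeq2, 1270 without the set term, 1271 in set 2, 3705 without culture 3, 1417 without cultures 3 and 4, and 174 to 3403 with 1 library left out. With LPS 1795 were called, and 2967 with DESeq2, 2878 without culture 3 and 90 to 2233 with 1 library left out. The difference of LPS effects was called for 1 gene, and for 116 with DESeq2, 34 without the filter, 156 with the replicate block, 4 in set 2, 44 without culture 3, 9 without cultures 3 and 4 and 0 to 15 with 1 library left out. Reads were not limiting for the 10 genes, the lowest of which, Nqo1, had 7.98 CPM or more, and 3 or 4 cultures a group limit the precision.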

Other observations

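Counts in the related lists with LPS are read against all genes, of which 22.4% rose and 25.3% fell in Δ/+ and 23.1% and 25.1% in Δ/DN. Of the 4 superoxide dismutase and catalase genes, Sod2, the mitochondrial manganese enzyme, rose by 2.32 ± 0.18 in Δ/+ and 2.35 ± 0.17 in Δ/DN on the log2 scale, and Cat fell by 0.55 ± 0.11 in Δ/+. Of 10 genes of haem breakdown and iron storage, 3 rose and 2 fell in Δ/+ and 4 rose and 3 fell in Δ/DN. Fth1, the ferritin heavy chain, went from 3471 to 7313 CPM in Δ/+ (1.11 ± 0.15), Alas1, the first enzyme of haem synthesis, rose by 1.24 ± 0.18, and the haem transporter gene Slc48a1 fell by 1.14 ± 0.10. In Δ/DN the same 3 genes changed by 1.16 ± 0.14, 1.08 ± 0.16 and -0.65 ± 0.09.

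Of 12 autophagy partners of p62, 5 rose and 5 fell with LPS in Δ/+ and 6 rose and 5 fell in Δ/DN. The cargo receptor genes Optn (1.71 ± 0.14 and 1.81 ± 0.13) and Tax1bp1 (1.05 ± 0.11 and 0.88 ± 0.10) and the kinase gene Tbk1 (1.55 ± 0.11 and 1.48 ± 0.11) rose in both genotypes. Tfeb, a transcription factor of lysosome genes, fell by 3.06 ± 0.21 in Δ/+ and 2.25 ± 0.18 in Δ/DN. Of the 29 other NRF2 targets tested, 5 rose and 10 fell in Δ/+, with Idh1 at -1.85 ± 0.11 and Txn1 at 1.29 ± 0.15, and 7 rose and 7 fell in Δ/DN, with Idh1 at -1.34 ± 0.09, and Gsr, the glutathione reductase gene, at 1.12 ± 0.13. In Δ/DN these counts are near the shares over all genes. Slc3a2, the partner chain of xCT, rose by 1.23 ± 0.15 in Δ/+ and 1.43 ± 0.14 in Δ/DN.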
